A study of Mus musculus with 4 samples.

Results

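The genes described are the collagens and the main glycoproteins of the extracellular matrix, measured in mouse liver. The members were all genes of the deposited table whose symbol is that of a collagen alpha chain, together with 10 matrix glycoproteins (Fn1, Fbn1, Eln, Lum, Dcn, Bgn, Sparc, Postn, Thbs1 and Thbs2). They numbered 43 of the 13903 genes listed. The 33 collagen genes were divided into 9 fibrillar collagens, 5 chains of type IV, the basement membrane collagen, and 19 other collagens.

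Liver mRNA was sequenced from OGT-Floxed mice (C57BL/6J background), all of which had been given the CDE diet (choline-deficient, ethionine-supplemented), which injures the liver. The groups labelled OGT-KO were given AAV8-TBG-CRE, a virus in which the hepatocyte-restricted TBG promoter drives Cre recombinase, and the groups labelled Control were given AAV8-TBG-eGFP. Tissue was collected either without recovery from the diet or once 7 days of recovery had passed, and the labels give neither the age of the mice nor the length of the diet. Each of the 4 groups was 1 library made from the equally pooled RNA of 3 mice, so no value below has a replicate error and no difference was tested against the variation between mice. Because Cre is restricted to hepatocytes by its promoter, the cells that make most matrix would keep the floxed allele.

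Collagens are built from 3 alpha chains wound into a triple helix, which requires glycine to recur with a period of 3 residues. Fibrillar collagens (types I, III and V among others) form the cable-like fibrils that accumulate in liver scars, type IV forms the sheet-like network of basement membranes, and the remaining collagens decorate fibrils, form beaded filaments or sit at membranes. In the injured liver these fibrils are made mainly by hepatic stellate cells that have become myofibroblasts and by portal fibroblasts, whereas hepatocytes secrete plasma fibronectin and type XVIII collagen. Glycoproteins such as fibronectin, fibrillin and the small leucine-rich proteoglycans organise the fibrils, and matricellular proteins such as SPARC, periostin and the thrombospondins modulate how cells bind them.

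The repeat that defines the family can be read directly in the coding sequence. Stretches of 90 bases from a pair of chains are printed to show how regular it is in a fibrillar chain and how it is broken in a type IV chain. They come from the GENCODE M21 coding sequences (GRCm38), 5′ to 3′, and glycine codons (GGN) are in capitals. Col1a1 is shown from codon 168 and Col4a1 from codon 148, counting the start codon as 1.
Col1a1: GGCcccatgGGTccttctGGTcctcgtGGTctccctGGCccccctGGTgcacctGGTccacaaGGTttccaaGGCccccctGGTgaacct
Col4a1: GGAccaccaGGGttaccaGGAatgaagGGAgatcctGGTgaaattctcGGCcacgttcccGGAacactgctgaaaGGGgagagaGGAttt
In Col1a1 all 10 triplets of the stretch open with glycine, while the Col4a1 stretch holds 9 glycine codons with gaps between them. The longest uninterrupted run of triplets with glycine first was 338 in Col1a1, 344 in Col3a1 and 339 in Col1a2. Among the 9 fibrillar chains it was 337 or more in all but Col27a1, where it was 217. It was 39 to 66 triplets in the 5 type IV chains and 30 to 113 in the 19 other collagens, with both multiplexins (Col15a1 and Col18a1) at 30. Among the glycoproteins only elastin, itself rich in glycine, had a run above 10 triplets, at 17.

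Several members lie next to each other in the mouse genome. In the RefSeq gene table the neighbouring pairs were Col3a1 and Col5a2 on chromosome 1, Col4a4 and Col4a3 on chromosome 1, Col6a2 and Col6a1 on chromosome 10, Dcn and Lum on chromosome 10, Col4a1 and Col4a2 on chromosome 8, and Col6a6 and Col6a5 on chromosome 9. Col4a1 and Col4a2, whose products assemble into one molecule, are transcribed away from a common start region. Their promoter windows (RefSeq, GRCm38.p6, 250 bases before to 50 after the start of transcription) overlap by 78 bases. These windows and that of Col1a2, for contrast, are shown on the strand of each gene, with CCAAT or its reverse complement in capitals. The Col4a1 window is chr8:11312777-11313076 on the minus strand, the Col4a2 window is chr8:11312555-11312854 on the plus strand and the Col1a2 window is chr6:4505368-4505667 on the plus strand.
Col4a1: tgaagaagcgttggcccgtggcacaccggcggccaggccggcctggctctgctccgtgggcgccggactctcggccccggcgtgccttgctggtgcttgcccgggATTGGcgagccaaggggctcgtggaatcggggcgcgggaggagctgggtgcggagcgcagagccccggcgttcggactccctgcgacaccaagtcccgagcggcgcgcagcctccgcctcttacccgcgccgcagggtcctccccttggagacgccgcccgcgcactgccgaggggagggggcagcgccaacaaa
Col4a2: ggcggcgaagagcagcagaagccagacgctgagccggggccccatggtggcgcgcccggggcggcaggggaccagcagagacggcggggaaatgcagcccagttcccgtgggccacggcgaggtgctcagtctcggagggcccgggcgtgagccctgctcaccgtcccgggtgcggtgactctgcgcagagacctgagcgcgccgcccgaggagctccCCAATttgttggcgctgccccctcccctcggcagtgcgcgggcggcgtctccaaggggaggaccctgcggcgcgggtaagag
Col1a2: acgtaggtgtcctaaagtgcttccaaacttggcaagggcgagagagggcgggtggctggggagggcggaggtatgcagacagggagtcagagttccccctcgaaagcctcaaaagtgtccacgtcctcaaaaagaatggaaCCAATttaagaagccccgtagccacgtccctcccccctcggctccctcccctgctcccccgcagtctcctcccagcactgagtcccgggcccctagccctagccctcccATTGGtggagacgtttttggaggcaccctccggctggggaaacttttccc
Each type IV window holds 1 CCAAT element, and that of Col1a2 holds 2. Windows were found for 31 of the 43 members. Among 23 windows of the 20 such genes that passed the filter on low values, read on both strands, CCAAT was present in 9, GGGCGG in 14, TATAAA in 3, GGAATG in 3 and TGANTCA in 1. Over all 32851 windows of this length the shares were 37.4%, 35.7%, 13.6%, 14.7% and 7.81%. A match gives only the presence of these letters.

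The deposited values are CPM, reads scaled to a fixed total over the listed genes, and the reads behind them could be recovered as whole numbers, from 19972699 to 22866431 per library. A floor of 3 reads corresponds to 0.131 to 0.150 CPM. Fold changes below are ratios of CPM with a 95% interval for counting error only. Calls were made on differences of log2(CPM + 1) of at least 1, a 2-fold change, which compresses the change of genes with few reads. Of the 43 members, 29 passed a filter of 10 CPM or more on the mean of all 4 libraries (7 fibrillar, 3 basement membrane, 9 other collagens and all 10 glycoproteins), as did 8963 genes in all. Of those 29, 12 had both Control libraries under 10 CPM and passed only through the OGT-KO-labelled libraries, so counts are led by all 43 members without the filter.

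Ogt, the targeted gene, had 55.3 CPM in the OGT-KO-labelled library and 64.7 in the Control-labelled library with no recovery, and 77.7 against 55.7 CPM after 7 days. Its fold was 0.855 (0.792 to 0.924) and then 1.40 (1.29 to 1.51), so the whole-gene value went against the label at the later time. That direction holds with total scaling, since the later log2 difference of 0.47 became -0.0053 with upper-quartile and -0.20 with median-ratio scaling, and the earlier one was negative in each case. The table gives no exon-level value that would show the deleted part. The libraries are therefore named by their labels throughout. The hepatocyte markers that define the labelled tissue were present in every library, with Alb at 41362 to 54434 CPM.

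The question the design poses first is how the livers labelled OGT-KO compared with Control at the end of the diet. Most collagens and matrix glycoproteins had far more RNA in the OGT-KO-labelled library. Of all 43 members, 35 were at least 2-fold higher with no recovery and 34 were after 7 days, against backgrounds of 33.1% and 32.3% of all 13903 genes. By class, 6 of 9 fibrillar, 5 of 5 basement membrane and 15 of 19 other collagens and 9 of 10 glycoproteins were higher with no recovery. Only Col5a3 was at least 2-fold lower with no recovery, and 0 of 43 were after 7 days (backgrounds 4.35% and 3.32%). The others short of a 2-fold call with no recovery were Col27a1, Col18a1 and Fn1 and the low genes Col11a1, Col8a2, Col6a6 and Col25a1, the last 4 named after their values were seen. The 1 CPM added before the call kept Col6a6 short, at a CPM fold of 3.04 (1.52 to 6.63), and Col11a1, at 3 reads against 0. Among the 29 members that passed the filter 25 were higher at each time, where 24.4% and 22.9% of the genes compared were, and 1 and 0 were lower, where 5.69% and 4.27% were. Both OGT-KO-labelled libraries were at least 2-fold above both Control libraries in 32 of the 43 members (background 24.3%) and in 25 of the 29 that passed (background 17.3%).

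The scaling of the libraries matters for these counts. The median gene was itself higher by 0.51 on the log2 scale with no recovery and by 0.48 after 7 days in the OGT-KO-labelled libraries. Scaling by the median ratio in place of the total moved these medians to -0.19 and -0.18, and with it the calls over all genes with no recovery from 2185 higher and 510 lower to 935 higher and 1381 lower. After 7 days they moved from 2050 higher and 383 lower to 1038 higher and 1055 lower. The count of members called higher stayed at 25 of 29 at both times under that scaling, and the count called lower became 3 (Col5a3, Col18a1 and Col27a1) before recovery and 2 (Col5a3 and Col18a1) after 7 days.

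**Figure D1:**
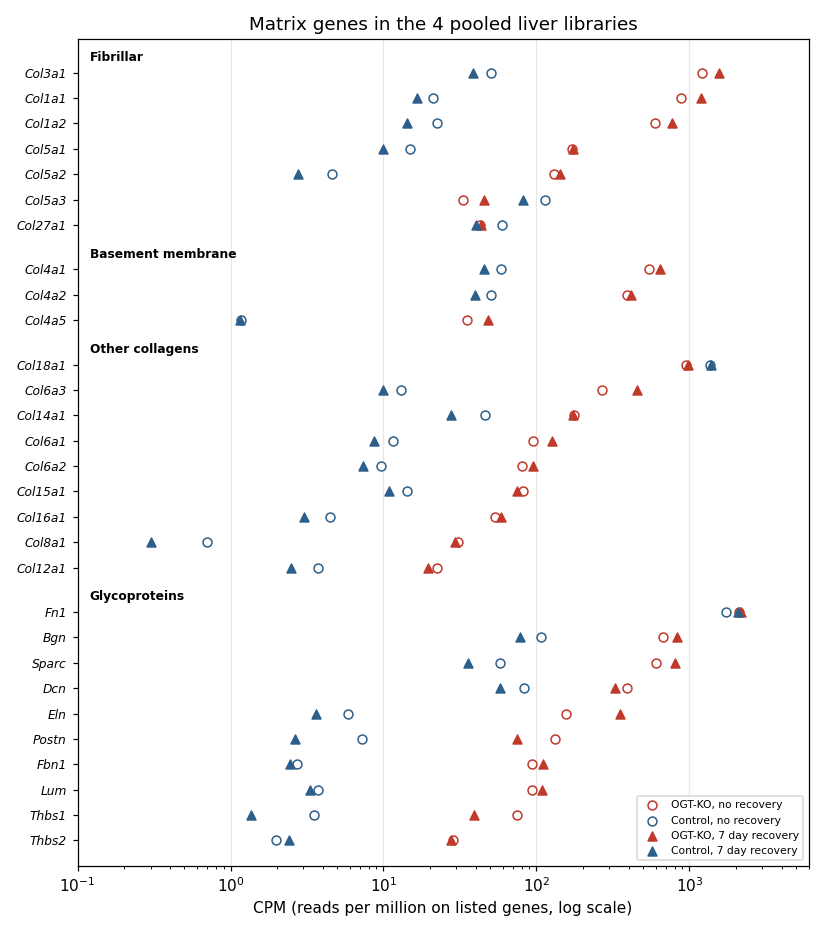
CPM (log axis) of the 29 members that passed the filter, by class, in the 4 pooled liver libraries, with red for OGT-KO, blue for Control, open circles for no recovery and filled triangles for 7 days. Both red points lie to the right of both blue ones for 26 genes, narrowly so for Fn1, and to the left of them for Col5a3 and Col18a1.

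The major fibrillar collagens were widely separated between the labels. Col1a1, the main chain of type I collagen, had 875 and 1192 CPM in the OGT-KO-labelled libraries (no recovery, then 7 days) and 21.0 and 16.5 CPM in those labelled Control. Its partner Col1a2 had 592 and 769 CPM against 22.3 and 14.3 CPM. Col3a1, the type III chain that co-assembles with type I in scar fibrils, had 1212 and 1549 CPM against 50.4 and 38.4 CPM. For each of these genes the OGT-KO-labelled library was higher at both times, with no overlap between the pairs of libraries. The fold of Col1a1 was 41.7 (38.0 to 45.9) before recovery and 72.4 (64.9 to 80.9) after 7 days. That of Col1a2 was 26.6 (24.3 to 29.2) and 53.9 (48.0 to 60.8), and that of Col3a1 was 24.0 (22.6 to 25.6) and 40.4 (37.6 to 43.4). All 3 exceeded the median gene by 4 or more on the log2 scale at both times.

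Type V collagen, which nucleates fibrils and limits their diameter, was split between its chains. Col5a1 had 170 and 173 CPM in the OGT-KO-labelled libraries against 14.8 and 9.96 CPM in Control, and Col5a2 had 130 and 142 CPM against 4.61 and 2.75 CPM. Col5a3, the remaining type V chain, went the other way, with 33.3 and 45.5 CPM against 114 and 81.6 CPM. Its fold was 0.293 (0.270 to 0.318) before recovery and 0.557 (0.515 to 0.603) after 7 days, so both Control libraries were above both labelled OGT-KO. It was lower under each of the 3 scalings, by 1.74, 2.21 and 2.45 on the log2 scale with no recovery for total, upper-quartile and median-ratio scaling. Col27a1, a fibrillar chain with a shorter helix, had 42.9 and 43.7 CPM against 59.2 and 40.3 CPM. Its log2 difference was -0.46 and 0.11, and the second value turned to -0.36 with upper-quartile and -0.56 with median-ratio scaling. Col11a2, best known from cartilage, had 5.51 and 2.70 CPM against 1.65 and 1.10 CPM and did not pass the filter.

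Type IV chains had more RNA in both OGT-KO-labelled libraries, in all 5 cases. Col4a1 had 541 and 637 CPM there and 58.3 and 45.1 CPM in Control, a fold of 9.29 (8.76 to 9.85) and 14.1 (13.2 to 15.1). Col4a2, from the shared promoter region printed above, had 389 and 412 CPM against 50.1 and 39.9 CPM, a fold of 7.77 (7.29 to 8.29) and 10.3 (9.60 to 11.1). These are the widespread chains of basement membranes, and their folds were smaller than those of the type I and III chains. Col4a5, one of the chains of more restricted tissue distribution, had 35.2 and 48.0 CPM against 1.18 and 1.15 CPM, which rest on 25 and 23 Control reads. Its fold was 29.97 (20.2 to 46.6) and 41.7 (27.7 to 66.1). Its usual partners Col4a3 and Col4a4 were low, at 3.41 and 5.18 CPM against 0.800 and 0.951 CPM, and at 3.89 and 9.17 CPM against 0.329 and 0.300 CPM.

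Among the other collagens, 1 gene stood apart from the rest. Col18a1, the precursor of endostatin, had 949 and 977 CPM in the OGT-KO-labelled libraries and 1364 and 1392 CPM in Control. Its fold was 0.696 (0.683 to 0.708) and 0.702 (0.690 to 0.715), both Control libraries being higher. With median-ratio scaling its log2 difference went from -0.52 and -0.51 to -1.24 and -1.19, past the 2-fold mark. Its multiplexin relative Col15a1, a collagen of basement membrane zones, had 82.0 and 74.9 CPM against 14.3 and 10.9 CPM and so lay on the opposite side.

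Type VI collagen forms beaded filaments around cells. Its 3 chains that passed the filter were all higher in the OGT-KO-labelled libraries. Col6a3 had 267 and 453 CPM there and 12.9 and 9.86 CPM in Control, a fold of 20.6 (18.3 to 23.4) and 45.9 (39.9 to 53.2). Col6a1 had 95.1 and 127 CPM against 11.6 and 8.61 CPM, and the adjoining gene Col6a2 had 80.2 and 94.3 CPM against 9.60 and 7.31 CPM. The 2 shorter chains had folds of 8.19 and 8.35 with no recovery and 14.7 and 12.9 after 7 days, below that of Col6a3 at each time. Collagens that attach to fibril surfaces were also higher, by unequal amounts. Col14a1 had 177 and 173 CPM against 46.2 and 27.7 CPM, a fold of 3.82 (3.56 to 4.10) and 6.23 (5.70 to 6.82). Col12a1 had 22.5 and 19.7 CPM against 3.72 and 2.50 CPM, a fold of 6.05 and 7.86. Col16a1 had 53.2 and 58.2 CPM against 4.47 and 3.00 CPM, a fold of 11.9 and 19.4. The network-forming Col8a1, known from vessel walls, was nearly absent from Control, with 0.706 and 0.300 CPM from 15 and 6 reads, against 30.9 and 29.3 CPM. Its fold of 43.8 (26.4 to 78.7) and 97.6 (44.6 to 267) has the widest counting interval of the members that passed.

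The glycoproteins divided in a similar way. Fibronectin, Fn1, was at much the same level in every library, with 2096 and 2177 CPM in the OGT-KO-labelled libraries and 1742 and 2069 CPM in Control. Its log2 difference of 0.27 and 0.07 changed sign with the other scalings, to -0.21 and -0.41 with the upper quartile and to -0.45 and -0.61 with the median ratio. The other 9 glycoproteins were at least 2-fold higher in the OGT-KO-labelled libraries at both times.

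The elastic fibre components had the largest folds of this group. Eln, elastin, had 156 and 351 CPM against 5.88 and 3.60 CPM, a fold of 26.5 (22.2 to 32.0) before recovery and 97.5 (77.3 to 125) after 7 days. Fbn1, the microfibril scaffold on which elastin is laid down, had 94.2 and 110 CPM against 2.73 and 2.45 CPM, a fold of 34.5 (26.6 to 45.6) and 44.9 (33.8 to 60.8). The small leucine-rich proteoglycans, which bind collagen fibrils, differed among themselves. Lum had 93.8 and 108 CPM against 3.72 and 3.30 CPM, and its neighbour Dcn had 391 and 327 CPM against 83.2 and 57.4 CPM. The fold of Lum was 25.2 (20.1 to 32.0) and 32.8 (25.7 to 42.5), several times that of Dcn at 4.70 (4.46 to 4.95) and 5.70 (5.36 to 6.07). Bgn, biglycan, lay between them with 673 and 834 CPM against 107 and 77.6 CPM, a fold of 6.31 (6.03 to 6.59) and 10.8 (10.2 to 11.3).

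Of the matricellular genes, Sparc had 602 and 799 CPM in the OGT-KO-labelled libraries and 57.8 and 35.8 CPM in Control. Its fold was 10.4 (9.83 to 11.1) and 22.3 (20.7 to 24.1). Postn, periostin, had 133 and 75.1 CPM against 7.24 and 2.65 CPM. Thbs1 and Thbs2, the thrombospondins, had 74.2 and 39.0 CPM against 3.53 and 1.35 CPM, and 28.5 and 27.8 CPM against 1.98 and 2.40 CPM. All 4 genes were higher in each OGT-KO-labelled library than in either Control library.

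By class, the medians of the log2 differences over all members were 3.44 for fibrillar, 2.93 for basement membrane and 1.89 for other collagens and 3.69 for glycoproteins with no recovery, where the median over all 13903 genes was 0.65. After 7 days they were 3.99, 3.34, 2.08 and 4.23, where that over all genes was 0.61. Restricted to the members that passed the filter, the medians were 4.55, 3.19, 2.93 and 3.69 with no recovery and 5.25, 3.79, 3.52 and 4.23 after 7 days. The order of the 3 collagen classes was the same in each of these sets, but their ranges overlapped. With the multiplexins counted as basement membrane, the medians of the passing members turned round, to 2.93 and 3.34 for basement membrane and 2.94 and 3.73 for other collagens. With no recovery the members that passed spanned -1.74 to 5.32 for fibrillar, 2.93 to 4.06 for basement membrane and -0.52 to 4.27 for other collagens.

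**Figure D2:**
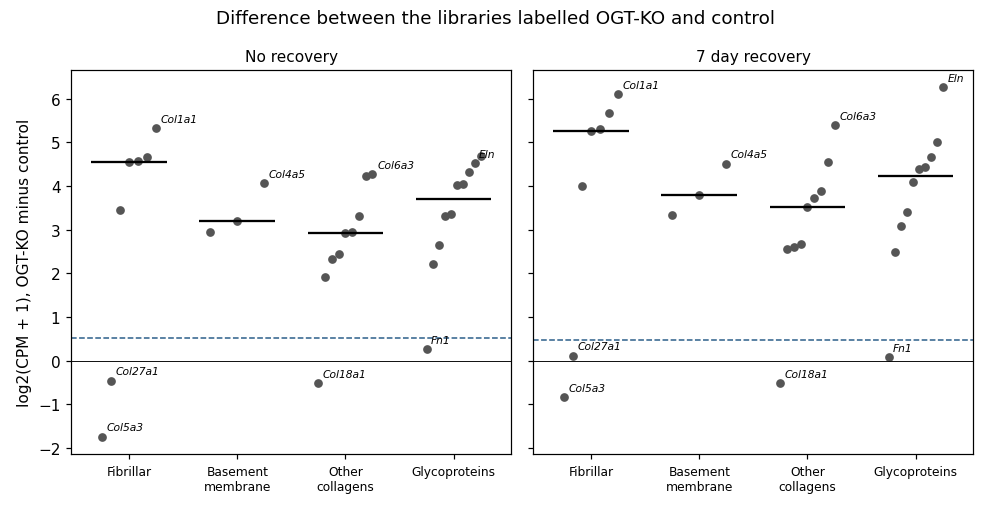
Difference in log2(CPM + 1) between the OGT-KO-labelled libraries and Control with no recovery (left) and after 7 days (right), 1 point per member that passed the filter, with the class median as a black bar and the median of the 8963 genes compared as a dashed line. The fibrillar median lies at 4.55 and 5.25, while Col5a3, Col27a1, Col18a1 and Fn1 lie below the dashed line in both panels.

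The 14 members under the filter had means of 0.0771 to 7.96 CPM, and in 13 of them both OGT-KO-labelled libraries were above both Control libraries. The share of all genes in that order was not computed. The median over all 13903 genes was itself 0.65 and 0.61 higher on the log2 scale with the label OGT-KO. The 3 of highest mean among the other collagens were Col13a1 (13.8 and 8.69 CPM against 5.74 and 3.61 CPM), Col7a1, the anchoring fibril collagen (4.64 and 6.78 CPM against 1.36 and 0.701 CPM), and Col20a1 (4.77 and 4.12 CPM against 1.84 and 1.90 CPM). The exception, named after its values were seen, was Col25a1, with 0.481 and 0.399 CPM against 0.517 and 1.10 CPM. Col11a1, also named after its values were seen, had 0 reads in both Control libraries and 3 and 4 reads in those labelled OGT-KO, which is at the limit of what this depth can show. The remaining 6 (Col9a3, Col6a5, Col8a2, Col22a1, Col6a6 and Col23a1) lay between 0.831 and 4.46 CPM in the OGT-KO-labelled libraries and between 0 and 0.612 CPM in Control.

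The total of collagen RNA was 5827 and 7069 CPM in the OGT-KO-labelled libraries and 1877 and 1763 CPM in Control. Its make-up differed too, and a share within the collagens does not depend on how libraries are scaled. Fibrillar chains took 52.5% (exact Clopper-Pearson interval 52.3 to 52.8) and 55.4% (55.2 to 55.7) of collagen reads in the OGT-KO-labelled libraries and 15.3% (14.97 to 15.7) and 11.6% (11.3 to 12.0) in Control. Basement membrane chains took 16.7% and 15.7% against 5.90% and 4.96%, and other collagens took 30.8% and 28.9% against 78.8% and 83.4%. A single gene set much of this contrast. Col18a1 alone held 72.7% and 78.9% of collagen reads in Control and 16.3% and 13.8% in the OGT-KO-labelled libraries.

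With Col18a1 left out, an alternative added after the data were seen, the classes were far closer. Fibrillar chains then took 62.7% (62.5 to 63.0) and 64.3% (64.0 to 64.6) in the OGT-KO-labelled libraries against 56.0% (55.1 to 57.0) and 55.2% (54.0 to 56.3) in Control. Basement membrane chains took 19.9% and 18.3% against 21.6% and 23.5%, so that their share was now lower in the OGT-KO-labelled libraries. The total without Col18a1 was 4878 and 6091 CPM against 513 and 371 CPM.

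**Figure D3:**
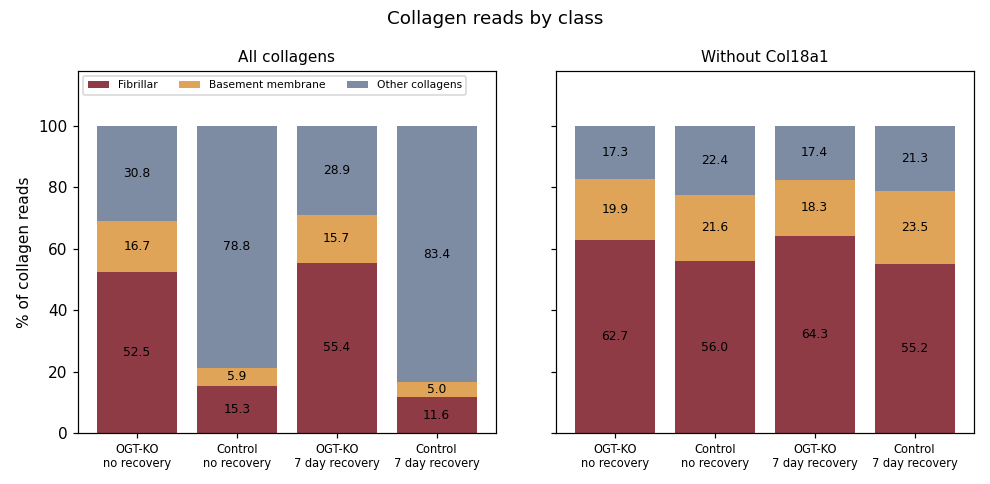
Share of collagen reads (percent) held by fibrillar, basement membrane and other collagens in each library, for all 33 collagen genes (left) and without Col18a1 (right). With all collagens the other class holds 78.8% and 83.4% in Control, and without Col18a1 it holds 22.4% and 21.3%.

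Levels can be compared between genes only per transcript length. The length used was that of the transcript with the longest coding sequence, so the order below depends on that choice. In CPM per kilobase with no recovery, Sparc at 441, Bgn at 278, Fn1 at 252, Dcn at 222 and Col3a1 at 218 were the highest members in the OGT-KO-labelled library, followed by Col18a1 at 170 and Col1a1 at 148. In the Control-labelled library the order was Col18a1 at 244, Fn1 at 209, Dcn at 47.3, Bgn at 44.1 and Sparc at 42.3, with Col3a1 at 9.06 and Col1a1 at 3.54.

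The balance between chains of the same collagen also differed between labels. Per length, the ratio of Col1a1 to Col1a2, which type I collagen contains at 2 to 1, was 1.33 (1.30 to 1.36) and 1.40 (1.37 to 1.42) in the OGT-KO-labelled libraries and 0.850 (0.746 to 0.970) and 1.04 (0.886 to 1.22) in Control. The ratio of Col4a1 to Col4a2 was 1.36 (1.32 to 1.39) and 1.51 (1.47 to 1.55) against 1.13 (1.04 to 1.23) and 1.10 (1.001 to 1.21). In both cases the intervals of the OGT-KO-labelled libraries did not meet those of Control. The ratio of Col6a1 to Col6a2 was 1.14 and 1.29 against 1.17 and 1.13, and the Control intervals, 0.965 to 1.41 and 0.905 to 1.42, took in both values.

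Type V showed the largest shift. Col5a1 and Col5a2 were at 1.03 (0.983 to 1.08) and 0.962 (0.918 to 1.01) in the OGT-KO-labelled libraries but at 2.53 (2.01 to 3.21) and 2.85 (2.11 to 3.92) in Control. For Col5a3 relative to Col5a1 the ratio was 0.269 (0.248 to 0.290) and 0.361 (0.337 to 0.387) against 10.5 (9.36 to 11.9) and 11.3 (9.71 to 13.1). Col5a3 was thus the main type V transcript in Control and the least of the 3 in the OGT-KO-labelled libraries. The ratio of Col1a1 to Col3a1 was 0.677 and 0.722 against 0.390 and 0.403.

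**Figure D4:**
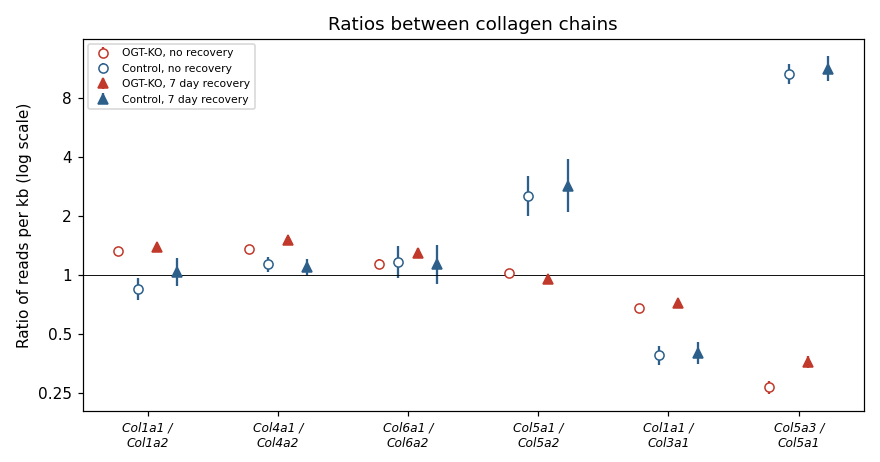
Ratio of reads per kilobase (log axis) between pairs of collagen chains in each library, with 95% counting intervals and the same colours and symbols as in the plot of levels. Red and blue points overlap for Col6a1 to Col6a2 and are farthest apart for Col5a3 to Col5a1, at 0.269 and 0.361 against 10.5 and 11.3.

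The second question is what happened over 7 days of recovery. In Control, most matrix genes were somewhat lower after 7 days, whereas in the OGT-KO-labelled libraries most fibrillar and type IV chains were somewhat higher. Few members changed 2-fold. In Control, 0 of the 43 were called at least 2-fold higher (background 0.223%) and 1, Postn, at least 2-fold lower (background 0.964%). Thbs1 and Col8a1, at CPM ratios of 0.383 and 0.426 in Control, missed the call only because it adds 1 CPM. In the OGT-KO-labelled libraries 3 were at least 2-fold higher, Eln, Col4a4 and Col8a2 (background 1.28%), and 1, Col6a5, was lower (background 0.791%). Among the 29 that passed, these counts were 0 and 1 in Control (backgrounds 0.245% and 0.96%) and 1 and 0 with the label OGT-KO (backgrounds 1.04% and 0.435%). Smaller differences were read against counting error alone. In Control 22 of the 29 had an interval below 1 (background 31.1%) and 2, Col18a1 and Fn1, had one above 1 (background 15.3%). In the OGT-KO-labelled libraries 19 were above 1 (background 27%) and 5 were below (background 33.2%).

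For 14 of the 29 the recovery fold was above 1 with the label OGT-KO and below 1 with the label Control, counting intervals included (background 8.68%). They were Col1a1, Col1a2, Col3a1, Col5a2, Col5a3, Col4a1, Col4a2, Col6a1, Col6a2, Col6a3, Col16a1, Bgn, Sparc and Eln. Interval counts were made only for genes that passed the filter. Of these genes Col5a2, Col6a2, Col16a1 and Eln had both Control libraries under 10 CPM and passed only through the OGT-KO-labelled libraries. Col1a1 stood at 1.36 (1.34 to 1.39) times its earlier level with the label OGT-KO and 0.785 (0.679 to 0.907) times with the label Control. The values for Col6a3 were 1.70 (1.64 to 1.75) and 0.763 (0.632 to 0.919), and for Sparc 1.33 (1.30 to 1.36) and 0.620 (0.565 to 0.680). Eln had the widest gap, at 2.25 (2.17 to 2.34) and 0.613 (0.452 to 0.826). Among the members that passed, the class median on the log2 scale was 0.35 for fibrillar and 0.24 for basement membrane collagens with the label OGT-KO. It was 0.04 for other collagens and 0.13 for glycoproteins, where the median gene was at -0.03. With the label Control these medians were -0.53, -0.32, -0.39 and -0.49, where the median gene was at -0.05. Over all 43 members they were 0.12, 0.44, -0.03 and 0.13 with the label OGT-KO (all genes -0.02). With the label Control they were -0.47, -0.03, -0.35 and -0.49 (all genes -0.05). Without the filter basement membrane collagens thus led with the label OGT-KO, and in Control lay near the median of all genes.

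Postn and Thbs1, matricellular genes of early wound repair, were lower after 7 days under both labels, unlike Sparc. Postn was at 0.566 (0.533 to 0.601) times its earlier level with the label OGT-KO and 0.366 (0.263 to 0.504) times with the label Control. Thbs1 was at 0.525 (0.483 to 0.570) and 0.383 (0.237 to 0.602). Together with Dcn, Col12a1 and Col15a1 they made up the 5 of the 29 with counting intervals below 1 under both labels (background 12.3%). Among the members under the filter Col13a1 was at 0.628 under both, with intervals of 0.523 to 0.753 and 0.463 to 0.847. Thbs2, a close relative of Thbs1, was at 0.976 (0.873 to 1.09) and 1.22 (0.787 to 1.89), intervals that include 1. Of the members under the filter, Col4a4 and Col8a2 were higher after 7 days with the label OGT-KO, at 2.36 (1.83 to 3.06) and 4.16 (2.49 to 7.28) times, from 89 and 19 reads, and Col6a5 was lower at 0.377 (0.253 to 0.553). Col8a2 and Col6a5 were named after their values were seen.

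Set beside each other at the separate times, the gap between the labels was at least 2-fold wider after 7 days for 5 of the 43 members (background 2.52%) and 2-fold narrower for 0 (background 1.03%). They were Eln, Col6a3 and Sparc, by 1.75, 1.12 and 1.08 on the log2 scale, and the low genes Col8a2 and Col4a4, by 1.49 and 1.09. Among the 29 that passed the counts were 3 and 0 (backgrounds 2.09% and 0.647%). Each of these values rests on 4 libraries of 1 pool each, and the difference itself was not tested.

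**Figure D5:**
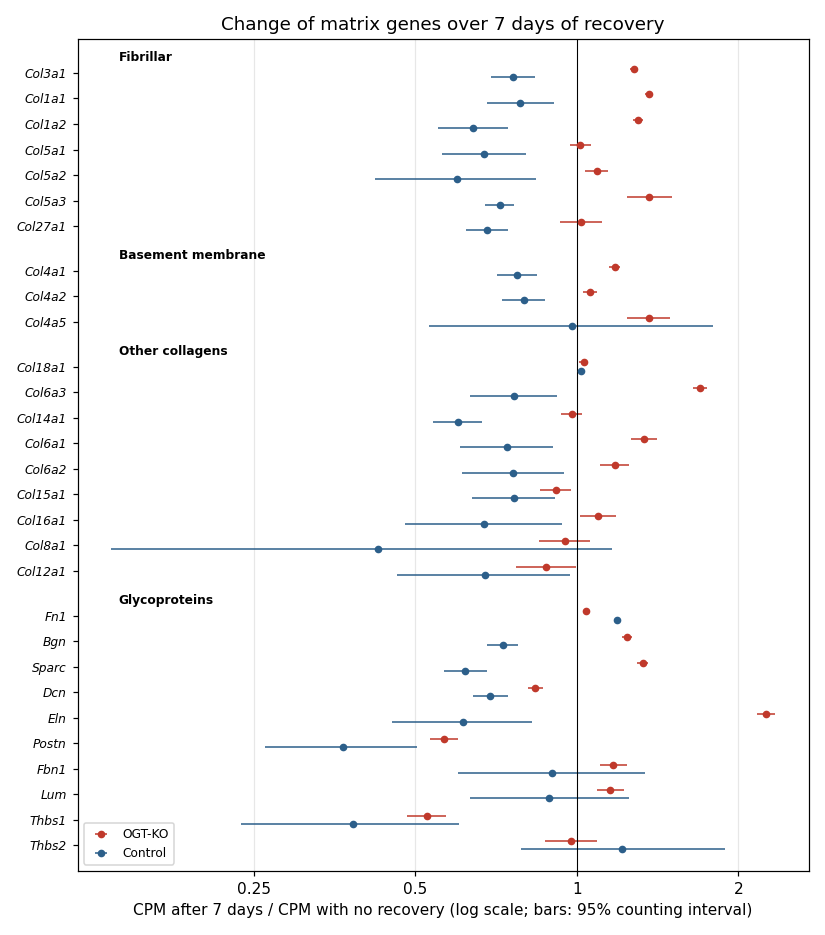
Ratio of CPM after 7 days to CPM with no recovery (log axis) for the 29 members that passed the filter, in the OGT-KO-labelled libraries (red) and Control (blue), with 95% counting intervals. Eln in red lies at 2.25, while Postn and Thbs1 lie left of 1 in both colours.

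Genes that act on collagen after translation did not all follow the chains. Of 25 genes for collagen modification, folding and processing, 15 passed the filter. Of the 15, 6 with no recovery and 10 after 7 days were at least 2-fold higher in the OGT-KO-labelled library (backgrounds 24.4% and 22.9%). The count lower was 0 (backgrounds 5.69% and 4.27%). Most of the 6 had both Control libraries under 10 CPM. They passed only through the OGT-KO-labelled libraries, so the filter itself favoured a higher call for them. The median log2 difference of the 15 was 0.84 and 1.08. P4hb, the beta subunit of prolyl 4-hydroxylase, had 1662 and 1782 CPM against 1542 and 1327 CPM. Ppib, a cyclophilin of the endoplasmic reticulum, had 248 and 310 CPM against 263 and 243 CPM. Mia3, which loads procollagen into transport carriers, had 197 and 173 CPM against 222 and 198 CPM, and the procollagen C-proteinase Bmp1 had 128 and 120 CPM against 131 and 133 CPM. None of these 4, which had the highest means of the list, reached 2-fold at either time. Serpinh1, the collagen-specific chaperone HSP47, which was named after its values were seen, had 151 and 199 CPM against 21.7 and 11.9 CPM, log2 differences of 2.74 and 3.96.

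A second list held 33 further matrix glycoproteins and proteoglycans, of which 31 were in the table and 20 passed. Of these, 16 with no recovery and 17 after 7 days were at least 2-fold higher in the OGT-KO-labelled library (backgrounds 24.4% and 22.9%). The count lower was 0 (backgrounds 5.69% and 4.27%), and the medians were 2.11 and 2.85 on the log2 scale. Several of the 20 had both Control libraries under 10 CPM. They passed only through the OGT-KO-labelled libraries, so the filter itself favoured a higher call for them. Vtn, vitronectin, a plasma protein made by hepatocytes, had the highest mean, at 2134 and 1916 CPM against 2851 and 2969 CPM. Nid1, the basement membrane protein nidogen, had 383 and 313 CPM against 16.4 and 12.8 CPM, log2 differences of 4.46 and 4.51. Agrn, a basement membrane proteoglycan, had 162 and 212 CPM against 54.5 and 53.9 CPM, and Ecm1 had 177 and 93.8 CPM against 120 and 76.9 CPM. Vtn thus lay on the Control side, as Col18a1 did, but short of 2-fold, at log2 differences of -0.42 and -0.63. Fn1, also secreted by hepatocytes, was at much the same level in every library. Nid1 lay on the side of type IV collagen.

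Markers of the cells that make matrix moved with the collagens. For every marker count below the backgrounds are again 24.4% and 22.9% higher and 5.69% and 4.27% lower. Some markers, such as Acta2 and Pdgfra, had both Control libraries under 10 CPM. They passed the filter only through the OGT-KO-labelled libraries, which favours a higher call. In bulk liver, fewer cells of a type and less RNA per cell cannot be told apart. All 7 stellate cell markers were at least 2-fold higher in the OGT-KO-labelled libraries at both times, and their sum was 591 and 670 CPM against 112 and 71.5 CPM. Rgs5, Reln and Pdgfrb had the highest mean CPM of them. The myofibroblast markers summed to 252 and 205 CPM against 20.3 and 14.7 CPM, with all 3 that passed (Tagln, Acta2 and Pdgfra) higher at both times. Acta2, smooth muscle actin, had 94.3 and 62.4 CPM against 5.22 and 2.95 CPM. It was lower after 7 days under both labels, as Tagln and Postn were, whereas Col1a1 was higher with the label OGT-KO. So was Pdgfra, at 29.4 and 52.2 CPM with that label and 3.39 and 2.75 CPM with the label Control. The portal fibroblast markers summed to 60.0 and 97.6 CPM against 7.01 and 7.01 CPM. Both that passed (Mfap4 and Cd34) were higher, but they passed only through the OGT-KO-labelled libraries. The rest of that list did not pass. Gli1, a defining marker of that list, had 1 read in each Control library.

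Markers of other cells moved as well. The 5 cholangiocyte markers were all higher at both times and summed to 1148 and 1457 CPM against 53.7 and 69.6 CPM, with Spp1, Epcam and Sox9 of the highest mean CPM. The 5 macrophage markers that passed, of 6, were likewise higher, and the list summed to 640 and 533 CPM against 153 and 54.8 CPM, led by Lyz2, Clec4f and Cd68. Endothelial markers summed to 317 and 231 CPM against 176 and 125 CPM, with 3 of 6 and then 1 of 6 past 2-fold. Lymphocyte markers summed to 4.81 and 2.88 CPM against 1.65 and 1.10 CPM. Mesothelial markers summed to 7.74 and 13.2 CPM against 4.09 and 3.81 CPM. These levels were low, and no marker of either list passed the filter. Hepatocyte markers summed to 50060 and 61610 CPM against 63933 and 69846 CPM, and of the 5 only Apoa2 was at least 2-fold lower. The part of these cell types in the collagen result was not tested.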

How the data were processed

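Liver mRNA libraries of 4 groups were used, 1 library per group. The authors deposited CPM for 13903 genes. The submitters' processing notes name STAR, DESeq2 and GRCm39. The role of each and the counting settings are not given in the sources used here. The deposited columns share 1 fixed total and 100% of values were whole multiples of 1 read (tolerance 0.05), so reads were recovered. Differences of log2(CPM + 1), a pseudocount of 1, were computed for genes averaging 10 CPM or more and called at 2-fold. No test of conditions was run, since 1 library per group leaves no replicate error. Intervals are 95% exact binomial or Poisson and cover counting error only. Transcript lengths and coding sequences came from GENCODE M21 (GRCm38). For each gene the protein-coding transcript with the longest coding sequence was taken, which need not be the one expressed. The coding stretch of a further chain is not reported here. Python 3.11, numpy 2.4.6, pandas 2.3.3, scipy 1.17.1 and matplotlib 3.10.9 were used, and the steps were tested on simulated data.

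Members, lists and tests were chosen with earlier results of these data known. Every member with a mean of at least 10 CPM could be named, as could Ogt, the 3 of highest mean in each class under it, the 4 of highest mean of each matrix list, and the 3 of highest mean of each marker list with defining markers near 0. Other genes are said to have been named after their values were seen. Alternatives were other pseudocounts, filters, scalings and thresholds, an exact binomial test on reads, and other groupings of the collagens.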

Additional observations from a re-analysis of the deposited data

Results flagged for a closer look

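For 14 of the 29 members that passed the filter, where 8.68% of the 8963 genes compared showed the same, the change over 7 days of recovery went opposite ways under the labels OGT-KO and Control, with neither counting interval reaching a ratio of 1. The difference was not tested, since each group is 1 library. The log2 change with the label OGT-KO less that with the label Control was 1.75 for Eln, 1.12 for Col6a3, 1.08 for Sparc, 0.99 for Col1a2 and 0.91 for Col5a3. It was 0.80 for Col6a1, 0.78 for Col1a1, 0.76 for Bgn, 0.74 for Col3a1 and 0.70 for Col5a2. It was 0.60 for Col4a1, 0.58 for Col6a2, 0.58 for Col16a1 and 0.40 for Col4a2. Col5a3 is in this set although it was lower with the label OGT-KO at both times. Col5a2, Col6a2, Col16a1 and Eln passed the filter only through the OGT-KO-labelled libraries, and members under the filter were not counted.

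For Ogt itself the difference between the labels went opposite ways at the 2 times, from a fold of 0.855 to one of 1.40, a log2 difference between times of 0.70 that was also not tested. The opposite directions hold only with total scaling: the values were -0.69 and -0.0053 with the upper quartile and -0.93 and -0.20 with the median ratio.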

How the results depend on the processing

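No paired analysis was possible because each group has 1 library and the labels carry no replicate numbers. The 25 members called higher at each time stayed within 1.5 times of that count under every alternative run. Calls over all genes moved more, with no recovery from 2185 to 935 of 8963 with the median ratio. Adding the exact binomial test, which compares libraries and not conditions, changed none of the counts it was run for, those of the label and recovery comparisons. It was not run for the difference of label folds.

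Members lower with the label OGT-KO went from 1 and 0 (no recovery, then 7 days) to 2 and 1 with upper-quartile scaling, to 3 and 2 with median-ratio scaling, and from 1 to 0 with no recovery at the 4-fold threshold. Of the 8963 genes compared, 510 and 383 were lower at first, 981 and 740 with the upper quartile and 1381 and 1055 with the median ratio. At 4-fold 164 were lower with no recovery. Members lower over recovery in Control went from 1 to 3 with a pseudocount of 0.1, and to 0 with a pseudocount of 10 or at 4-fold. Over all 8963 genes that count went from 86 to 130, to 21 and to 2 in turn. Members higher over recovery with the label OGT-KO went from 1 to 3, and those lower from 0 to 1, with no filter or a mean of at least 1 CPM, and the first to 0 at 4-fold. Over all genes 93 and 39 of 8963 were higher and lower at first, and 178 and 110 of 13903 with no filter. With a mean of at least 1 CPM they were 170 and 92 of 12989, and at 4-fold 7 of 8963 were higher. The gap between labels widened in 3 members, which became 5 with no filter or a mean of at least 1 CPM, 1 with a pseudocount of 10 and 0 at 4-fold. Over all genes it widened in 187 of 8963, and in 351 of 13903 and 341 of 12989 with those 2 filters. With a pseudocount of 10 and at 4-fold it widened in 54 and 9 of 8963.

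Class medians on the log2 scale kept their sign. Fibrillar medians (no recovery, then 7 days) were 3.26 and 3.57 with a pseudocount of 10, 3.44 and 3.99 with no filter, 3.99 and 4.62 with a mean of at least 1 CPM, 4.08 and 4.82 with the upper quartile and 3.85 and 4.62 with the median ratio. Basement membrane medians were, for the same settings, 2.73 and 3.08, 2.93 and 3.34, 2.93 and 3.34, 2.72 and 3.31, and 2.48 and 3.113. They were 3.06 and 3.56 with a mean of at least 50 CPM, and 2.93 and 3.34 with the multiplexins added, below the other collagens, then at 2.94 and 3.73. Medians of the other collagens were, for those 5 settings, 1.93 and 2.28, 1.89 and 2.08, 2.00 and 2.38, 2.47 and 3.07, and 2.24 and 2.88, and 2.42 and 3.16 with a mean of at least 50 CPM. Glycoprotein medians were 3.98 and 4.61 with a pseudocount of 0.1, 2.78 and 2.95 with 10, 3.24 and 3.84 with the upper quartile and 3.02 and 3.66 with the median ratio. The log2 difference of Ogt was -0.69 and -0.0053 with the upper quartile and -0.93 and -0.20 with the median ratio.

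Shares of collagen reads are given in the order OGT-KO and Control with no recovery, then OGT-KO and Control after 7 days. Divided by length, fibrillar shares were 53.6%, 14.0%, 57.1% and 10.6%, basement membrane shares 15.1%, 5.16%, 14.2% and 4.31%, and those of the others 31.4%, 80.8%, 28.7% and 85.1%. With the multiplexins counted as basement membrane, that class held 34.4%, 79.3%, 30.6% and 84.5% and the others 13.1%, 5.36%, 14.0% and 3.87%, which turns the contrast of both classes between labels round. Without Col18a1, the fibrillar share was 62.7%, 56.0%, 64.3% and 55.2%, that of basement membrane 19.9%, 21.6%, 18.3% and 23.5%, and that of the others 17.3%, 22.4%, 17.4% and 21.3%. Depth limits the genes with few Control reads, such as Col8a1 and Col4a5, and no setting stands in for replicate mice.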

Other observations

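Among the further matrix genes, 3 that were named after their values were seen were low in Control, and of them only Fbn2 was close to absent there. Fbn2, a fibrillin of developing tissue, had 709 and 882 reads in the libraries labelled OGT-KO (31.0 and 39.1 CPM, no recovery then 7 days) and 1 and 0 reads in those labelled Control. Ltbp2, a microfibril-associated protein, had 92.9 and 95.4 CPM against 2.26 and 1.001 CPM. Tnc, tenascin C, a matricellular protein of healing tissue, had 84.4 and 36.6 CPM against 1.93 and 1.20 CPM. Its ratio over recovery was 0.433 (0.399 to 0.470) with the label OGT-KO and 0.623 (0.360 to 1.06) with the label Control, an interval that includes 1. That of Fbn2 with the label OGT-KO was 1.26 (1.14 to 1.39).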
